A study of Homo sapiens with 3 samples.

Results

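The genes of the proteasome were followed in SW48 cells, an established human colorectal cancer line. They were taken as every gene of the array whose probe carried a single symbol beginning PSMA, PSMB, PSMC, PSMD, PSME, PSMF or PSMG and then a digit, with pseudogenes left out. This gave 49 of the 18282 named genes, on 68 of the 24658 probes with 1 symbol. By name alone the rule also takes PSMC3IP, a meiotic recombination factor that is no proteasome subunit, so 48 of the 49 belong to the proteasome, its assembly factors or its regulators. There were 3 groups with 1 sample each. The library labelled DDX3+YAPsi came from cells with a plasmid for the RNA helicase DDX3 and a plasmid for knockdown of YAP1, the coactivator of the Hippo pathway. The library labelled DDX3 came from cells with the DDX3 plasmid, and the vector library from cells with pcDNA3.1 alone. All were stable cells selected with G418, per the labels, and each sample was made from 2 technical replicates whose separate values were not used here. The labels do not say whether a line was 1 clone or a pool, and no library held the knockdown plasmid without the DDX3 plasmid. No spread between samples can be had from 1 sample each, so no difference was tested and none has a replicate check.

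The proteasome is the protease that breaks down proteins tagged with ubiquitin. Its barrel-shaped core is built of alpha rings, which gate the entrance, and beta rings, which hold the catalytic sites. A regulatory cap on the end of the core binds tagged substrates, removes the ubiquitin and unfolds the chain with a ring of ATPases, so that it can be threaded into the core. In cells that receive interferon the catalytic beta subunits are exchanged for immunoproteasome subunits, which favour peptides suited to presentation on MHC class I. When proteasome activity drops, the transcription factor NFE2L1 raises the genes of core and cap together, and cancer cells lean on this supply because they carry a high load of misfolded protein.

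Values below are probe intensities on a linear scale, multiplied per library so that the 75th percentiles were equal, and probes of 1 gene were averaged on the log2 scale. Deposited medians over all probes were 305 in the library labelled DDX3+YAPsi, 414 in the one labelled DDX3 and 469 in the vector library, so the scaling factors were 1.35 (DDX3+YAPsi), 0.922 (DDX3) and 0.806 (vector). A gene was measured in a comparison when both libraries reached the floor, the 50th percentile of all probes, at 411 (DDX3+YAPsi), 382 (DDX3) and 378 (vector). A difference is of log2 scaled intensity, written as one library minus another, and 1 equals 2-fold. The only error that could be estimated was the disagreement between probes of a gene. Over 2280 genes with 2 or more probes above the floor, its SD was 0.26 in DDX3 minus vector. It was 0.24 in DDX3+YAPsi minus DDX3 and 0.29 in DDX3+YAPsi minus vector. It says nothing of the spread between cultures. DDX3X had 6252 in the library labelled DDX3+YAPsi, 7137 in the one labelled DDX3 and 9891 in the vector library, and YAP1 had 20768 (DDX3+YAPsi), 20279 (DDX3) and 18298 (vector). Neither gene followed the labels, so the plasmid libraries are named by label throughout. Of the intestinal epithelial markers, 7 of 10 on the array reached the floor in all libraries, among them EPCAM, CDH1, KRT19 and CDX2. KRT20, CDX1 and LGALS4, also among the 7, were dim, between 411 and 663. KRT8 had 355 (DDX3+YAPsi), 488 (DDX3) and 464 (vector), so it missed the floor for DDX3+YAPsi. VIL1 and GPA33 were below the floor in all libraries.

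Promoter sequences of 4 members are shown because their values stand at the ends of the comparisons or because they hold a motif of the interferon response. Among measured members in the promoter table, PSMD10 had the lowest and PSMA6 the highest difference in DDX3+YAPsi minus vector. PSME2 had the highest difference of DDX3 minus vector, and PSMB10 is an immunoproteasome subunit. Each run is the 250 bases before the RefSeq start in GRCh38.p14, written 5′ to 3′ along the gene. They lie at chrX:108091543-108091792 on the minus strand for PSMD10, chr14:35292067-35292316 on the plus strand for PSMA6, chr14:24146611-24146860 on the minus strand for PSME2 and chr16:67936851-67937100 on the minus strand for PSMB10. Capitals mark a match to a motif searched on both strands.
PSMD10: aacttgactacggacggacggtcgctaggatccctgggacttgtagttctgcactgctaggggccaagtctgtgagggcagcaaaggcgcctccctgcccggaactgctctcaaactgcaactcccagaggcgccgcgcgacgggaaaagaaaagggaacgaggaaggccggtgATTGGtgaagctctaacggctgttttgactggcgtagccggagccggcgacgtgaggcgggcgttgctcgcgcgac
PSMA6: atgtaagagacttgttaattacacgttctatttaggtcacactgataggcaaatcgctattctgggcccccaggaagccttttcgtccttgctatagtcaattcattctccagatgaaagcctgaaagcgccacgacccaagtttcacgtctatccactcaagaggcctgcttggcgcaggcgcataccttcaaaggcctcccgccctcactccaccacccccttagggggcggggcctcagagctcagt
PSME2: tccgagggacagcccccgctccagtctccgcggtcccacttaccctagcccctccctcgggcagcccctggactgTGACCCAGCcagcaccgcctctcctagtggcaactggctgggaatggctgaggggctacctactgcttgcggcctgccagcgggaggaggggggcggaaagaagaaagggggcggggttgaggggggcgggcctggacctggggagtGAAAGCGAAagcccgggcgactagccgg
PSMB10: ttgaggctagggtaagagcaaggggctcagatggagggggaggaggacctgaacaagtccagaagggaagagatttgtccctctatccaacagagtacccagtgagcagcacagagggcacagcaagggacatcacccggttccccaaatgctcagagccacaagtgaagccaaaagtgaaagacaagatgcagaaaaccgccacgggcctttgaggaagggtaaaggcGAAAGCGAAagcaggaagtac

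The motifs were a part of the antioxidant response element (TGACNNNGC), which NFE2L1 and NFE2L2 bind, the CCAAT box (CCAAT) and a part of the interferon-stimulated response element (GAAANNGAA). Of 49 members, 43 were matched in the promoter table. The antioxidant letters were in 11 of 43 member windows (25.6%) and in 10.9% of all 35116 windows. The CCAAT box was in 19 (44.2% against 32.0%) and the interferon-response letters in 5 (11.6% against 6.88%). Members were counted with 1 window per symbol. The shares over all windows were not limited in this way, nor to genes on the array, so the sets are unlike. No match of one motif overlapped a match of another among the 41 matches in member windows. PSME2 and PSMB10 held the same letters GAAAGCGAA, which began 28 bases before the start in PSME2 and 21 bases before it in PSMB10. PSMG4 held them as well, 33 bases before the start. PSMA4 and PSMB4, subunits of the constitutive core, held other matches to the interferon-response letters. The immunoproteasome subunits PSMB8 and PSMB9 held none, nor did PSME1, the partner of PSME2. In PSME2 an antioxidant match, TGACCCAGC, began 175 bases before the start. PSMD10 had 1 CCAAT box on the other strand, and PSMA6 had no match in this window. A match is a string of letters and was not tied to any measured binding here.

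**Figure D1:**
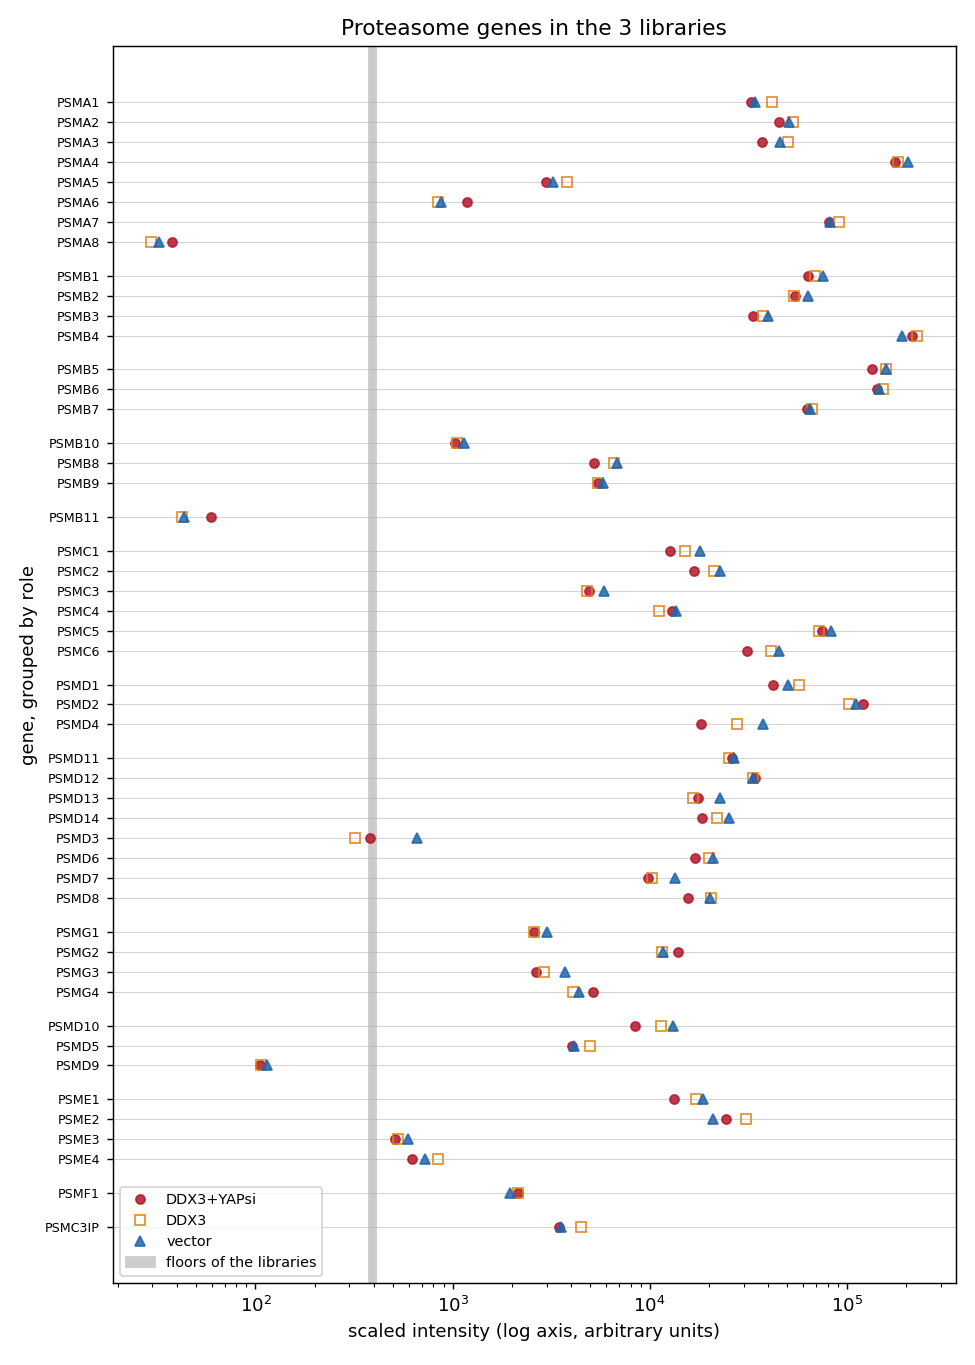
Scaled intensity (log axis) of each of the 49 genes for DDX3+YAPsi (filled circles), DDX3 (open squares) and vector (triangles), 1 sample each, grouped by role from the alpha ring at the top to PSMC3IP. The grey band spans the floors of the libraries; PSMA8, PSMB11 and PSMD9 lie below it in all libraries, and PSMD4 is spread widest among the genes well above it.

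Most members were bright. The median member stood at the 93.4th percentile of all genes in the library labelled DDX3+YAPsi, at the 93.9th in the one labelled DDX3 and at the 94.9th in the vector library. The counts at or above the 95th percentile were 19 (DDX3+YAPsi), 22 (DDX3) and 24 (vector) of 49. In all, 45 members reached the floor in every library. PSMA8, the alpha subunit of the testis, and PSMB11, the catalytic subunit of thymic epithelium, were below it everywhere, with at most 37.9 and 59.6. PSMD9, a chaperone of cap assembly, was also below it, between 105 and 114. PSMD3, a scaffold subunit of the cap's lid, had 379 in the library labelled DDX3+YAPsi, 320 in the one labelled DDX3 and 660 in the vector library, so it reached the floor in the vector library alone. Set against the floors of the plasmid libraries, it was at least 1.61-fold lower for DDX3+YAPsi and at least 1.73-fold lower for DDX3, both relative to vector. The plot of intensity by gene shows the level of every member.

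In DDX3+YAPsi minus vector the proteasome genes mostly had differences below 0. Of 45 measured members 37 were below 0, where 47.8% of all 9855 measured genes were, and the median was -0.21 against 0.02 over all genes. PSMD4 was at least 2-fold lower and no member was at least 2-fold higher, where 0.203% and 0.274% of all genes were. By more than the SD between probes, 14 members were lower and 1 was higher, against 16.2% and 18.8% of all genes. Most members are bright, so genes at or above the 75th percentile of level are a closer background. The 31 members among them had a median of -0.24 with 26 below 0, and all 2464 of these genes had a median of -0.05 with 56.0% below 0. The library labelled DDX3+YAPsi was also the dimmest as deposited, and the part this plays in the differences was not tested. With loess centring on level, the median of members was -0.19 and 34 of 45 were below 0, beside 51.6% of all genes. Centring on the median put 39 of 45 below 0, beside 62.3% of all genes. With no scaling all 45 were below 0, as were 98.7% of all genes.

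PSMD4, a ubiquitin receptor in the base of the cap, differed most. Its probe had 18126 in the library labelled DDX3+YAPsi, 27600 in the one labelled DDX3 and 37732 in the vector library. The libraries thus stood in one order, with DDX3+YAPsi lowest and vector highest. The differences were -1.06 for DDX3+YAPsi minus vector (2.08-fold lower), -0.61 for DDX3+YAPsi minus DDX3 and -0.45 for DDX3 minus vector. In the first of these it was 11 from the lowest of 9855 measured genes, and it was the lowest of the 2464 genes at or above the 75th percentile of level.

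This value rests on 1 probe. A further probe is annotated to both PSMD4 and PIPSL, a retrocopy that joins parts of PIP5K1A and PSMD4, and names no gene here. It had 10286 in the library labelled DDX3+YAPsi, 12369 in the one labelled DDX3 and 11486 in the vector library, a difference of -0.16 for DDX3+YAPsi minus vector. The shared probe was therefore lowest in the library labelled DDX3+YAPsi too, but its difference lay inside the SD between probes. It was highest in the library labelled DDX3, at 0.11 for DDX3 minus vector. There it had the opposite sign to the probe of PSMD4 alone, and it did not keep that probe's order. The probe of PIPSL alone was below the floor, with 44.7 (DDX3+YAPsi), 33.1 (DDX3) and 40.2 (vector). So the probe that reads PSMD4 alone and the probe that reads it with PIPSL gave unequal differences, and the cause was not tested.

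**Figure D2:**
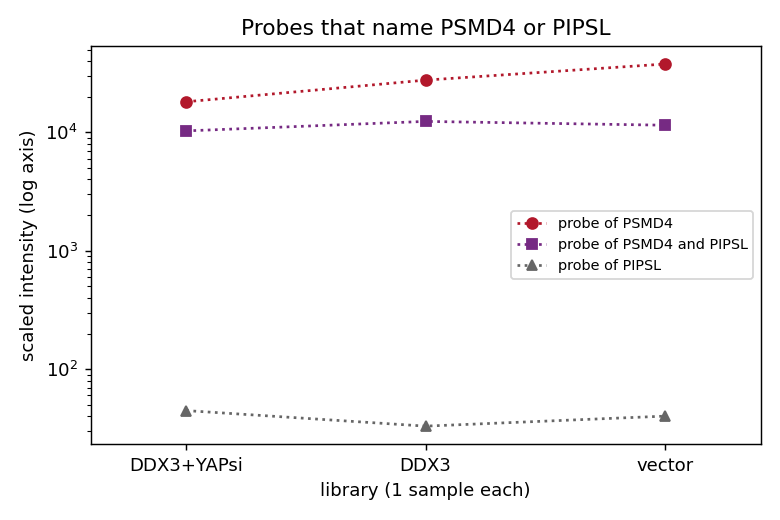
Scaled intensity (log axis) of the probes annotated to PSMD4, to PSMD4 and PIPSL, and to PIPSL in each library (1 sample each). Dotted lines join values of a probe and carry no error; the PSMD4 probe runs through 18126 (DDX3+YAPsi), 27600 (DDX3) and 37732 (vector) while the shared probe stays between 10286 and 12369.

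Genes of the cap had lower differences than genes of the core in DDX3+YAPsi minus vector. Its 16 measured genes had a median of -0.34 with 14 below 0, and the 14 measured core genes, without immunoproteasome subunits, a median of -0.14 with 12 below 0. The gap of -0.20 between these medians does not change with any scaling factor, since the same factor enters both. All 6 ATPases that form the unfolding ring were below 0, with a median of -0.34. PSMC6 had 31285 in the library labelled DDX3+YAPsi, 41446 in the one labelled DDX3 and 45440 in the vector library, a difference of -0.54. PSMC1 had 12736 (DDX3+YAPsi), 15073 (DDX3) and 17971 (vector), a difference of -0.50. Both were lowest in the library labelled DDX3+YAPsi and highest in the vector library. PSMC2 was at -0.44 and its probes at -0.28, -0.69 and -0.34, so that each stood below 0. PSMC3 was at -0.25, PSMC5 at -0.16 and PSMC4 at -0.07.

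In the lid, which carries the enzyme that removes ubiquitin, 6 of 7 measured genes were below 0, with a median of -0.37. PSMD14, that enzyme, had 18470 in the library labelled DDX3+YAPsi, 21911 in the one labelled DDX3 and 25404 in the vector library, a difference of -0.46. Its partner PSMD7 had 9786 (DDX3+YAPsi), 10315 (DDX3) and 13494 (vector), likewise -0.46. PSMD13 (-0.37), PSMD8 (-0.37) and PSMD6 (-0.30) were lower by more than the SD between probes. PSMD11 (-0.03) and PSMD12 (0.03) were close to 0. Of the large scaffold subunits of the base, PSMD1 was at -0.26 and PSMD2 at 0.11. SHFM1, a small lid subunit outside the naming rule, was at -0.31, and ADRM1, a ubiquitin receptor of the base, at 0.01.

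**Figure D3:**
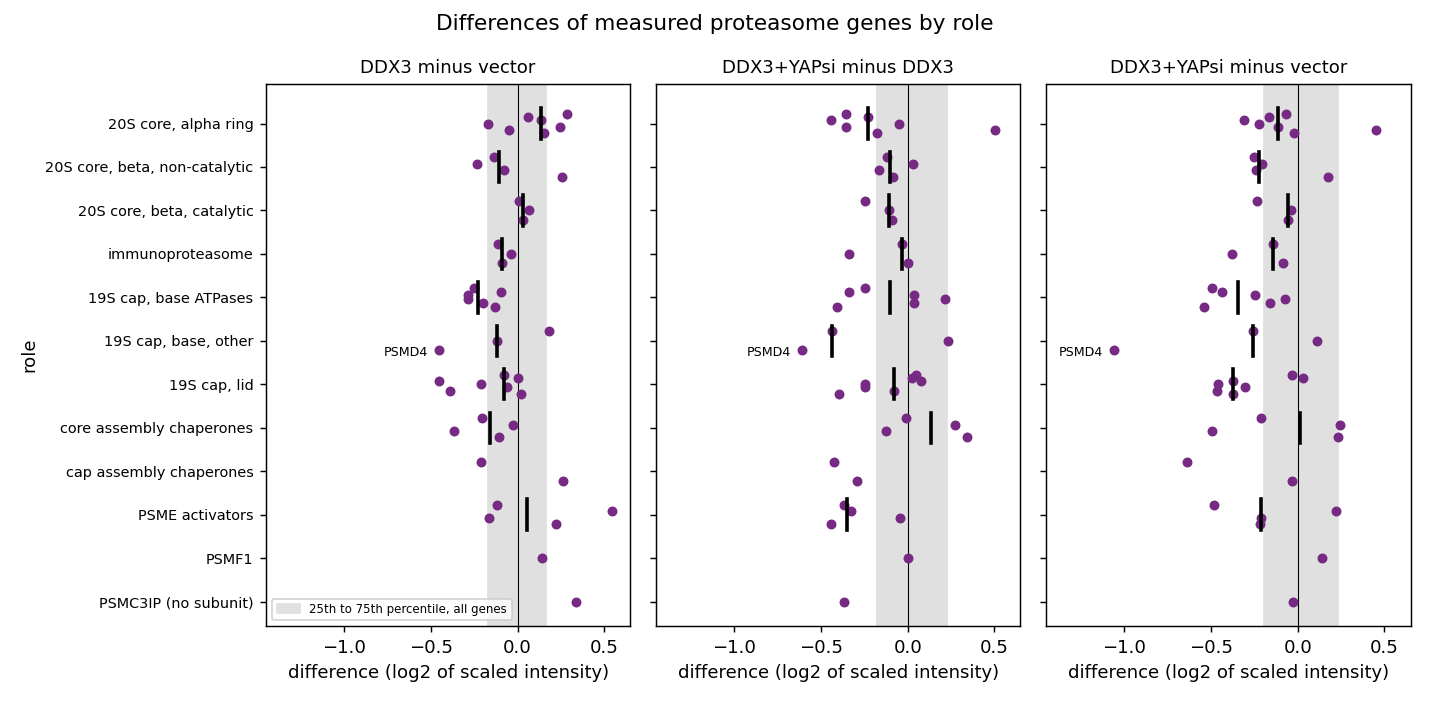
Difference of log2 scaled intensity of each measured proteasome gene (points) by role, for DDX3 minus vector, DDX3+YAPsi minus DDX3 and DDX3+YAPsi minus vector, with PSMD4 labelled. Black bars are medians of roles with 3 or more genes and the grey band runs from the 25th to the 75th percentile of all measured genes. In the right panel the medians of the ATPases (-0.34), the lid (-0.37) and the other base genes (-0.26) lie left of the band. So do those of the non-catalytic beta subunits (-0.22) and the activators (-0.21).

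The core was closer to 0 in the same comparison. In the alpha ring, 6 of 7 measured genes were below 0, from PSMA3 at -0.31 to PSMA7 at -0.02, and PSMA6 was the exception. PSMA6 had 1189 in the library labelled DDX3+YAPsi, 839 in the one labelled DDX3 and 869 in the vector library. Its difference of 0.45 was the highest of all measured members. It rests on 1 probe, and with no scaling it turned to -0.29. Among the beta subunits without a catalytic site, PSMB1, PSMB2 and PSMB3 stood between -0.25 and -0.21, and PSMB4 at 0.18. PSMB4 had 215032 in the library labelled DDX3+YAPsi, 227747 in the one labelled DDX3 and 190401 in the vector library, which was the lowest.

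The catalytic subunits of the constitutive core differed little in DDX3+YAPsi minus vector. PSMB5, the chymotrypsin-like subunit and main target of proteasome inhibitor drugs, had 134213 in the library labelled DDX3+YAPsi, 158938 in the one labelled DDX3 and 158073 in the vector library. PSMB6, the caspase-like subunit, had 142039 (DDX3+YAPsi), 152741 (DDX3) and 145951 (vector). PSMB7, the trypsin-like subunit, had 62688 (DDX3+YAPsi), 66670 (DDX3) and 65203 (vector). Each was lowest in the library labelled DDX3+YAPsi, by -0.24, -0.04 and -0.06 against vector, all inside the SD between probes. The PSMB6 probes disagreed in sign there, at 0.08 for the brighter and -0.16 for the dimmer. In DDX3+YAPsi minus DDX3, PSMB5 was at -0.244, just past the SD between probes of 0.238. PSMB6 (-0.10) and PSMB7 (-0.09) were inside it.

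**Figure D4:**
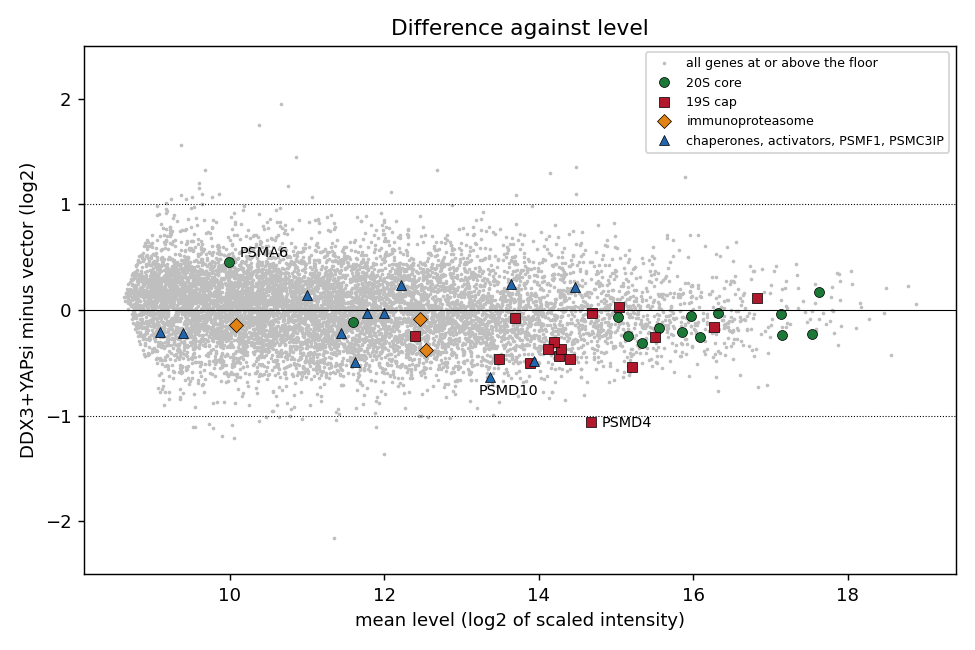
Difference of DDX3+YAPsi minus vector (log2) against the mean level of both libraries (log2 of scaled intensity) for all genes at or above the floor in every library (grey) and for the proteasome genes by part (coloured). Dotted lines mark 2-fold; most coloured points lie at high level and below 0, with PSMD4 at -1.06 and PSMA6 at 0.45.

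All immunoproteasome subunits were above the floor. PSMB8 had 5233 in the library labelled DDX3+YAPsi, 6619 in the one labelled DDX3 and 6800 in the vector library, a difference of -0.38 for DDX3+YAPsi minus vector that its probes shared (-0.34 and -0.42). PSMB9 had 5492 (DDX3+YAPsi), 5481 (DDX3) and 5832 (vector), a difference of -0.09. PSMB10 had 1035 (DDX3+YAPsi), 1057 (DDX3) and 1141 (vector), a difference of -0.14. PSMB8 alone of these passed the SD between probes. The ratio of each to the constitutive subunit it replaces needs no scaling. In DDX3+YAPsi minus vector, PSMB8 over PSMB5 differed by -0.14, PSMB9 over PSMB6 by -0.05 and PSMB10 over PSMB7 by -0.08. The ratios differed in DDX3 minus vector by -0.05, -0.16 and -0.14, and, for DDX3+YAPsi minus DDX3, by -0.09, 0.11 and 0.06. With a spread from probes of 0.29 to 0.36, none of these 9 values was larger than its error. An exchange between constitutive and immunoproteasome subunits was therefore not detectable here.

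**Figure D5:**
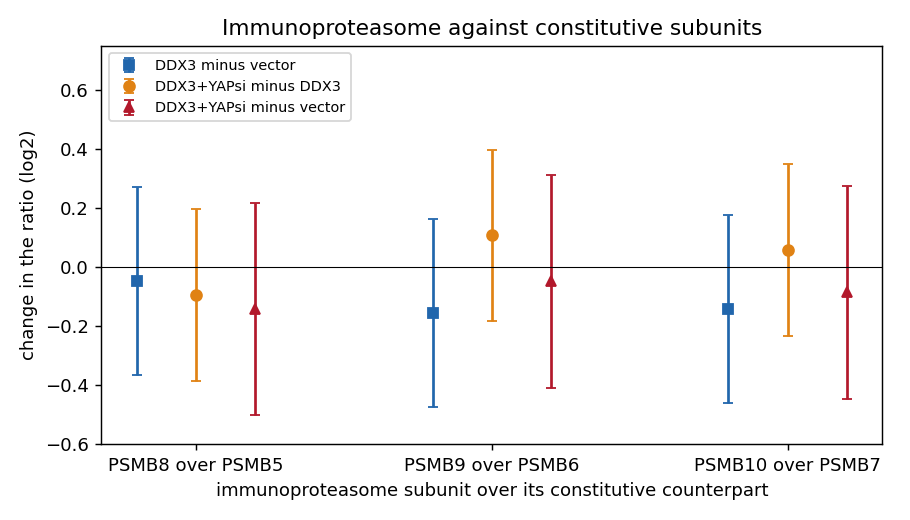
Change in the ratio (log2) of PSMB8 to PSMB5, PSMB9 to PSMB6 and PSMB10 to PSMB7 in the comparisons of the libraries. Error bars are 1 SD expected from the disagreement between probes of a gene, not from replicates; every bar crosses 0.

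Of 8 measured genes of antigen processing, which act with the immunoproteasome, 4 were below and 4 above 0 in DDX3+YAPsi minus vector, with a median of 0.01. In DDX3+YAPsi minus DDX3 the split was again 4 and 4, with a median of 0.06. In DDX3 minus vector 7 of 8 were below 0, with a median of -0.05 that turned to 0.05 with the brightest probe of each gene. None was at least 2-fold different. In DDX3+YAPsi minus vector HLA-C, an MHC class I heavy chain, was at -0.48, B2M, the light chain, at -0.34, TAPBP, the peptide-loading factor tapasin, at 0.37, and NLRC5, the transactivator of this group, at 0.20. ERAP2, which trims peptides, was at 0.31 in DDX3 minus vector and at -0.42 in DDX3+YAPsi minus DDX3. In DDX3 minus vector HLA-C was at -0.33, HLA-F, a non-classical class I chain, at -0.12 and NLRC5 at -0.10. TAP1, a peptide transporter subunit, had 30618 in the library labelled DDX3+YAPsi, 27782 in the one labelled DDX3 and 28384 in the vector library. IRF1, the interferon-induced factor that binds response elements of this kind, was at -0.09 in DDX3+YAPsi minus vector. Leukocytes carry immunoproteasome, so their markers were read as well: PTPRC, CD3E and ITGAM were below the floor in all libraries, while CD14 and CD68 were above it. The summed level of the 5 leukocyte markers on the array was 2680 in the library labelled DDX3+YAPsi, 2220 in the one labelled DDX3 and 2512 in the vector library. Of the 6 fibroblast markers, 5 were below the floor in all libraries, COL1A1 being above it, and none of the 3 endothelial markers reached it in every library. Their part in the values of the immunoproteasome subunits was not tested.

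The activators bind the core in place of the cap. PSME2, which pairs with PSME1 in the interferon-inducible activator, had 24464 in the library labelled DDX3+YAPsi, 30664 in the one labelled DDX3 and 20996 in the vector library. It was highest in the library labelled DDX3, and its 0.55 against vector was the highest difference of any member in that comparison. PSME1 had 13282 (DDX3+YAPsi), 17160 (DDX3) and 18598 (vector), so it was highest in the vector library, at -0.12 for DDX3 minus vector and -0.49 for DDX3+YAPsi minus vector. The partners of one complex thus had differences on opposite sides of 0 against vector, PSME2 being at 0.22 for DDX3+YAPsi minus vector. In DDX3 minus vector the PSME1 probes disagreed in sign, at -0.28 and 0.05. In DDX3+YAPsi minus DDX3 both partners were below 0, PSME1 at -0.37 and PSME2 at -0.33. PSME3, an activator of the nucleus, was at -0.21 for DDX3+YAPsi minus vector, and PSME4, linked to histone breakdown, at -0.22 with probes at -0.64 and 0.20. PSME4 had 623 in the library labelled DDX3+YAPsi, 845 in the one labelled DDX3 and 725 in the vector library. PSMF1, an inhibitor of the core, was at 0.14, with probes at -0.25 and 0.54.

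The chaperones that build the particle were mixed. PSMD10, also called gankyrin, which holds the ATPases during assembly, had 8467 in the library labelled DDX3+YAPsi, 11353 in the one labelled DDX3 and 13160 in the vector library. Its difference of -0.64 was the second lowest of the measured members for DDX3+YAPsi minus vector. PSMG2 and PSMG4, from separate dimers that arrange the alpha ring, were at 0.24 and 0.23, and their partners PSMG1 and PSMG3 at -0.21 and -0.50. PSMG2 had 13901 in the library labelled DDX3+YAPsi, 11522 in the one labelled DDX3 and 11742 in the vector library. PSMG4 had 5174 (DDX3+YAPsi), 4087 (DDX3) and 4400 (vector), so both were highest in the library labelled DDX3+YAPsi. PSMG3 had 2650 (DDX3+YAPsi), 2894 (DDX3) and 3735 (vector) and was highest in the vector library. The PSMG3 probes disagreed, at -0.84 for the dimmer and -0.15 for the brighter, as did those of PSMG4, at 0.49 and -0.02. PSMD5, a further ATPase chaperone, had 4052 in the library labelled DDX3+YAPsi, 4967 in the one labelled DDX3 and 4143 in the vector library, and so was highest in the library labelled DDX3. POMP, the maturation factor of the core, was at 0.02.

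In DDX3 minus vector the differences stayed closer to 0. Of 45 measured members 28 were below 0, against 51.2% of all 9863 measured genes, with a median of -0.08 against -0.01. None was at least 2-fold higher or lower, where 0.183% and 0.152% of all genes were. By more than the SD between probes, 6 were lower and 4 were higher, against 15.2% and 14.5% of all genes, shares that the members did not exceed. With no scaling 38 were below 0, beside 78.7% of all genes.

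Cap and core had medians on opposite sides of 0 in DDX3 minus vector, except that with no scaling the core median turned to -0.15. Of 16 cap genes 13 were below 0 with a median of -0.16, and of 14 core genes 5 were below 0 with a median of 0.05, a gap of -0.21 that no scaling factor changes. All 6 ATPases were below 0, from -0.29 for PSMC4 to -0.10 for PSMC2. The PSMC2 probes were at 0.18, -0.51 and 0.03, so 1 of 3 sets its sign here. PSMC4 had 12959 in the library labelled DDX3+YAPsi, 11178 in the one labelled DDX3 and 13630 in the vector library. PSMD13, a lid subunit, had 17608 in the library labelled DDX3+YAPsi, 16667 in the one labelled DDX3 and 22770 in the vector library, a difference of -0.45 for DDX3 minus vector. PSMD7 was at -0.39. In the alpha ring 5 of 7 were above 0, with PSMA1 at 0.29, and in the beta ring PSMB4 was at 0.26. PSMA5 was at 0.24 as the mean of a probe above the floor at 0.06 and a probe below it in all libraries at 0.43. PSMA1 had 32578 in the library labelled DDX3+YAPsi, 41666 in the one labelled DDX3 and 34158 in the vector library, so it was highest in the library labelled DDX3, as were both of its probes. PSMC3IP, no subunit, had 3486 (DDX3+YAPsi), 4497 (DDX3) and 3554 (vector), a difference of 0.34, while PSMD5 was at 0.26 and PSMG3 at -0.37. SHFM1 was at -0.44 and POMP at 0.36.

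In DDX3+YAPsi minus DDX3, 32 of 45 measured members were below 0, against 47.4% of all 9834 measured genes. The median was -0.13 against 0.02, and at or above the 75th percentile of level it was -0.18 for 31 members against -0.0017 for 2459 genes. None was at least 2-fold higher or lower, where 0.112% and 0.163% of all genes were. By more than the SD between probes, 19 members were lower and 3 were higher, against 19.2% and 23.6% of all genes. Centring on the median put 40 of 45 below 0, beside 61.1% of all genes, and no scaling put all 45 below 0, beside 96.6%.

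Here cap and core had similar medians, -0.16 and -0.14, a gap of -0.02. Of the core genes 12 of 14 were below 0, and of the cap genes 9 of 16. PSMA3, an alpha subunit, had 37123 in the library labelled DDX3+YAPsi, 50514 in the one labelled DDX3 and 45958 in the vector library, a difference of -0.44. PSMD1 had 42384 (DDX3+YAPsi), 57295 (DDX3) and 50619 (vector), a difference of -0.43, and PSMD10 (-0.42) and PSMC6 (-0.41) were close to it. All 4 activator genes were below 0, with PSME4 at -0.44, although its brighter probe was at 0.02 and its dimmer one, which missed the floor for DDX3+YAPsi, at -0.90. PSMA6 was the highest at 0.50, followed by PSMG4 at 0.34, PSMG2 at 0.27, PSMD2 at 0.23 and PSMC4 at 0.21. PSMD2 had 120808 in the library labelled DDX3+YAPsi, 102995 in the one labelled DDX3 and 111958 in the vector library. This comparison and those against vector share libraries, so their values are given side by side and were not related to each other.

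Seen over all libraries at once, 30 of the 45 measured members were lowest in the library labelled DDX3+YAPsi, a share of 66.7%, where 34.7% of the 9728 genes measured in all libraries were. Of these, 17 stood in the order vector above DDX3 above DDX3+YAPsi, a share of 37.8% against 18.1% of all genes. They include PSMD4, PSMD10, PSMC6, PSMC1, PSMC2, PSMD14 and PSMB8. PSMC2 stood so as the mean of its probes, which were at 0.18, -0.51 and 0.03 in DDX3 minus vector. The probe shared by PSMD4 and PIPSL did not keep this order. A further 13 were highest in the library labelled DDX3 and lowest in the library labelled DDX3+YAPsi, among them PSMA1, PSMA3, PSMD1 and PSMB5. PSMA1 stood so as the mean of its probes, which were at 0.14 and -0.27 in DDX3+YAPsi minus vector. PSMA6, PSMG2, PSMG4 and PSMD2 were among the 6 that were highest in the library labelled DDX3+YAPsi. No share over all genes was taken for the 13 or for the 6, so whether these counts are unusual cannot be said. The shares over all genes were not repeated for bright genes alone.

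The transcription factors and helpers around the proteasome were mixed. NFE2L1, which raises proteasome genes, had 8365 in the library labelled DDX3+YAPsi, 7058 in the one labelled DDX3 and 6890 in the vector library, a difference of 0.28 for DDX3+YAPsi minus vector. NGLY1, the glycanase that NFE2L1 needs to become active, had 6250 (DDX3+YAPsi), 9089 (DDX3) and 8546 (vector), and was lowest in the library labelled DDX3+YAPsi at -0.45. DDI2, the protease that cuts NFE2L1, was below the floor in all libraries. In the same comparison NFE2L2, a relative of NFE2L1 in the oxidative stress response, was at 0.35, and KEAP1, which holds NFE2L2 down, at -0.13. NFE2L2 had 23320 (DDX3+YAPsi), 24739 (DDX3) and 18237 (vector), so it was highest in the library labelled DDX3. It was at 0.44 in DDX3 minus vector and at -0.09 in DDX3+YAPsi minus DDX3. Of 12 proteasome-associated proteins measured in DDX3+YAPsi minus vector, 5 were below 0 and 7 above, with a median of 0.05. AKIRIN2, the nuclear import factor of the proteasome, was at 0.28, the deubiquitinase UCHL5 at 0.24, PAAF1, which binds ATPase subunits, at -0.30 and TXNL1, a thioredoxin bound to the cap, at -0.20. The unfoldase VCP was at 0.28 in DDX3 minus vector, and the shuttle factor UBQLN1 at -0.38 in DDX3+YAPsi minus DDX3. In DDX3+YAPsi minus vector UBA1, the main ubiquitin-activating enzyme, was at 0.24, and the ubiquitin gene UBB at -0.24. UBA1 was at -0.27 in DDX3 minus vector and at 0.50 in DDX3+YAPsi minus DDX3. UBB was at -0.07 and -0.17 in these comparisons. None of the genes measured on these lists was 2-fold different in any comparison.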

How the data were processed

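Total RNA was amplified, labelled with Cy5 and read on 1-colour arrays, per the labels' protocols. The deposited table holds intensity on a linear scale for 31741 probes in 3 samples. How the authors corrected background, scaled arrays and merged technical replicates is not stated by any source used here. Probes were named from the platform annotation, and all 49 members are current RefSeq symbols (GRCh38.p14). Intensities were scaled to a common 75th percentile, log2 was taken, and probes with 1 symbol were averaged per gene. With 1 sample per group no test was made, and the low number of arrays limits precision. Members and gene lists were chosen with earlier results of these data known. Values in every library are given for PSMD4, the catalytic and immunoproteasome subunits and the 5 highest and 5 lowest members per comparison. From each partner list up to 4 genes with the largest differences per comparison were eligible. Other members and partners named for their role were chosen after their values were seen. Steps were tested on simulated data. Python 3.11.15, pandas 2.3.3 and statsmodels 0.14.6 (lowess, span 0.3) were used. Alternatives were median centring, quantile and loess scaling, no scaling, the brightest probe, floors at the 25th and 75th percentile or none, and a 1.5-fold threshold. Leaving out PSMC3IP was added after the data were seen. Promoter windows were RefSeq's, and 2819 of 2819 overlapping windows on opposite strands were reverse complements.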

Additional observations from a re-analysis of the deposited data

How the results depend on the processing

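Scaling set the size of the differences. Centring on the median gave medians over members of -0.23 for DDX3+YAPsi minus DDX3 and -0.33 for DDX3+YAPsi minus vector, beside -0.08 and -0.10 over all measured genes. With no scaling the medians were -0.67 for DDX3+YAPsi minus DDX3, -0.95 for DDX3+YAPsi minus vector and -0.28 for DDX3 minus vector, beside -0.52, -0.72 and -0.20 over all genes, and the whole array moved along. The count of members at least 2-fold different then was 1 for DDX3+YAPsi minus DDX3, where 5.68% of all genes were, and 14 for DDX3+YAPsi minus vector, where 19.2% were. For DDX3 minus vector that count was 1 with a floor at the 25th percentile and with no floor, the gene being PSMD3 at -1.05, beside 0.552% and 0.629% of all genes. At a 1.5-fold threshold it was 1 (PSMD4) for DDX3+YAPsi minus DDX3, beside 4.93% of all genes, and 2 (PSMD4 and PSMD10) for DDX3+YAPsi minus vector, beside 6.31%. Without PSMC3IP the medians were -0.08, -0.12 and -0.21 for DDX3 minus vector, DDX3+YAPsi minus DDX3 and DDX3+YAPsi minus vector. Under quantile, loess and brightest-probe settings the medians over all measured members stayed within 0.1 (log2) and their counts within 1.5 times. Medians by role moved more with the brightest probe: the activator median was -0.14 in place of -0.35 in DDX3+YAPsi minus DDX3 and -0.0048 in place of -0.21 in DDX3+YAPsi minus vector, and the median of all chaperones was 0.13 in place of -0.07 in DDX3+YAPsi minus DDX3. With the brightest probe, 5 of 126 values of single genes and lists moved by more than the SD between probes, among them PSME4 for DDX3+YAPsi minus vector, at 0.20, and PSMG3 in the same comparison, at -0.15. No paired analysis was possible because each group has 1 sample. Whether probes were saturated could not be judged.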
